A study of Brassica rapa subsp. pekinensis with 6 samples.

Results

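The genes described here were abundant in wild-type flower buds of Chinese cabbage and were still expressed, at a reduced level, in buds of the male sterile mutant msm. They were chosen by their deposited RPKM values (reads scaled to the length of the gene and to the reads of the library). A gene was taken when its mean RPKM over the wild-type libraries was at least 100 and the ratio of its mean RPKM in msm to that in wild type lay above 1/8 and at most 1/2. This gave 107 genes of the 35421 with a read in any library, or 5.84% of the 1831 genes of at least 100 RPKM in wild type. They are called the partly reduced genes below. The values that chose them are the values of the comparison of msm with wild type, so every difference between the groups given for them is a description and has no test.

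The libraries came from developing buds of Brassica rapa subsp. pekinensis at full bloom, in 2 groups of 3 libraries. One group has the genotype mutant msm, from which the libraries 1, 2 and 3 were made, and the other is the wild type FT, with the libraries 1, 2 and 4. No treatment is named, and the gene behind msm is not named either. Nothing in the labels ties the libraries to separate plants, and the SDs given here may be technical. The identity of the buds could not be checked against marker genes, because the gene identifiers carry no names.

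In male sterile plants the anthers give no functional pollen, while sepals, petals and the pistil can still form. A flower bud holds all of these organs together, and the pollen-producing part of the anther is a tissue whose genes can be strongly expressed. The tapetum, the inner cell layer of the anther wall, feeds the developing pollen and delivers its outer coat. RNA of a whole bud is a sum over its cells, so that fewer cells of a type and less RNA per cell cannot be told apart in these data.

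Depth was alike in both groups, with means of 25534727 ± 600111 uniquely assigned reads per library in msm and 25156752 ± 216956 in wild type (SD, n = 3 each). Every one of the 107 genes passed the filter on low counts, and the smallest read number of any of them in any library was 83 in msm and 781 in wild type. Counting error alone gives a coefficient of variation of 11.0% at 83 reads. In edgeR's quasi-likelihood fit across 29104 genes, 3641 genes (12.5%) were lower in msm by at least 2-fold at a Benjamini-Hochberg adjusted p below 0.05. All 107 partly reduced genes were among them, as the choice of genes on the same values makes likely, so nothing is read from this count. With scaling by total counts the calls over all genes were 3203 lower and 2030 higher, against 3641 lower and 1351 higher with TMM, edgeR's trimmed scaling.

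Abundant genes of the wild type fell into a large group with little change, a group that was nearly lost, and a thin range between them that holds the partly reduced genes. Of the 1831 abundant genes, 195 had a ratio of at most 1/8, 107 were partly reduced, 1508 lay above 1/2 and at most 2, and 21 lay above 2. In steps of 0.5 on the log2 scale, the partly reduced range held 14, 9, 30 and 54 genes, counted from the lower bound upwards. The next step above the upper bound held 77 genes and the one after it 561. On the low side, the steps just below 1/8 held 9 and 10 genes, whereas 176 genes lay at a log2 ratio of -4 or less. Genes were thus few around the lower bound and more frequent towards the upper one, and neither bound stands at an empty stretch.

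**Figure D1:**
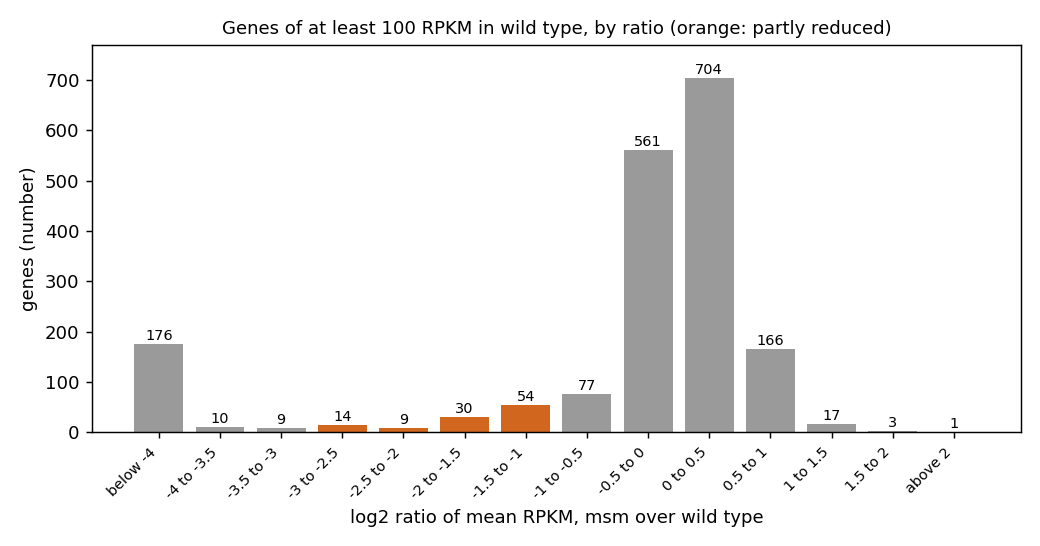
Number of genes (vertical axis) by the log2 ratio of mean RPKM, msm over wild type (horizontal axis, steps of 0.5; end bars are open), for the 1831 genes of at least 100 RPKM in wild type. The 107 partly reduced genes are in orange; 561 and 704 genes stand in the steps on either side of a log2 ratio of 0, and 176 at the far low end.

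The partly reduced genes were lower in msm by 2.04-fold to 7.86-fold, with a median of 2.82-fold. Their mean level ran from 13.8 to 1190.0 RPKM in msm (median 72.5 RPKM), against 101 to 3671 RPKM in wild type (median 222 RPKM). Of the 107, 39 kept a mean of at least 100 RPKM in msm and 68 did not. The ratio of msm to wild type lay at most at 1/4 in 23 genes, above 1/4 and at most at 1/3 in 21, and above 1/3 in 63. On the RPKM scale the median log2 ratio of the 107 genes was -1.50, beside 0.23 over the 28664 tested genes with reads in both groups. Over the 1831 genes of at least 100 RPKM in wild type, this median was -0.010. With TMM scaling, whose factors were 1.07 to 1.08 in msm and 0.925 to 0.929 in wild type, the medians were -1.71 for these genes and 0.005 for all tested genes. The scaling thus moves both medians by about the same amount.

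**Figure D2:**
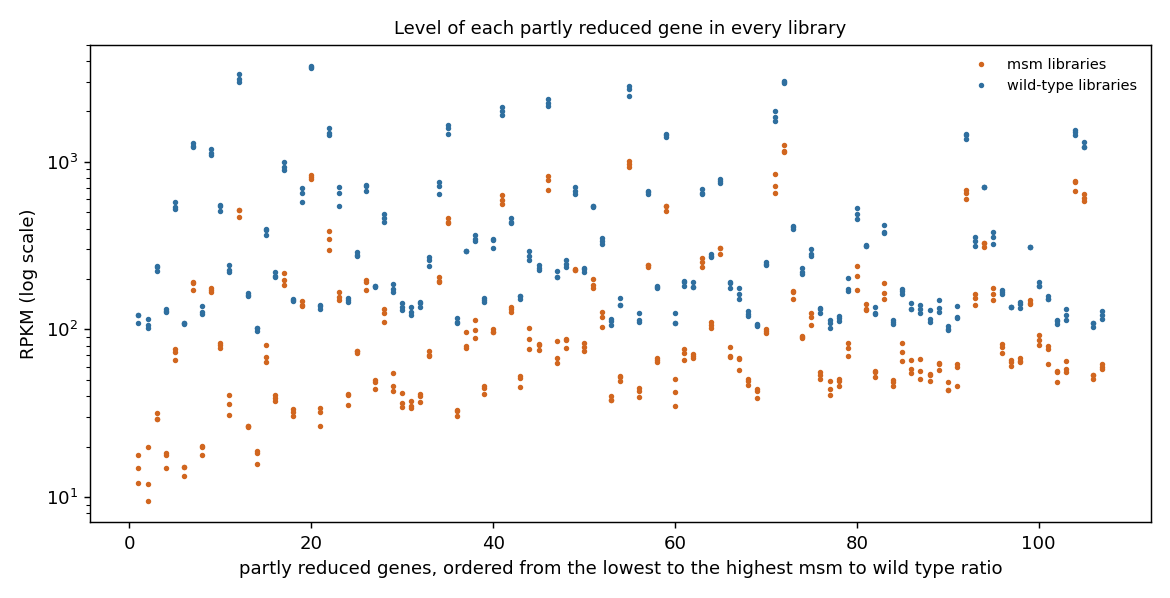
RPKM on a log scale (vertical axis) of each of the 107 partly reduced genes (horizontal axis, in order of ratio) in the 3 msm libraries (orange) and the 3 wild-type libraries (blue). The msm points of a gene stand below its wild-type points throughout, and the widest relative spread within a group is that of the second gene from the left, which spans 9.52 to 20.0 RPKM in msm.

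No partly reduced gene had overlapping groups. In all 107 the highest msm library was below the lowest wild-type library in RPKM, which held for 6741 of all 35421 genes (19%); this too follows the choice of genes. The spread within groups was small: the median coefficient of variation was 6.20% in msm and 4.13% in wild type. Counting error alone would give medians of 2.32% in msm and 1.34% in wild type. The error of a gene's log2 ratio, from the spread of its libraries, had a median of 0.064 (SE), and the log2 ratios of the 107 genes had an SD of 0.55 among themselves. The bounds on the ratio largely set the size of this SD, so nothing is read from it.

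The order of the genes by reduction was compared between sets of libraries. When the ratio was taken from a single msm library over a single wild-type library, and again from another msm library over another wild-type library, the Spearman correlation across the 107 genes was 0.795 to 0.968 over the 18 such comparisons. The genes were chosen on all 6 libraries, so this is a description. Genes chosen on 2 msm and 2 wild-type libraries were also measured in the other library of each group, which did not enter the choice. The 9 ways to do so gave 104 to 109 genes each. All of them were lower in the left-out msm library than in the left-out wild-type library. Libraries of a group lay close together and may not be separate plants. The choice thus made this outcome likely, and nothing is read from it. The median ratio of the chosen genes in the left-out libraries was 0.327 to 0.371. The bounds of 1/8 and 1/2 were met again in the left-out libraries by 84.3% to 97.1% of the genes chosen.

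The reduced genes were more frequent among the strongest transcripts of the wild type. Of the 46 genes of at least 1000 RPKM in wild type, 15 (32.6%) were partly reduced, 12 (26.1%) had a ratio of at most 1/8 and 19 (41.3%) lay above 1/2. Between 500 and 1000 RPKM, 13 of 107 genes (12.1%) were partly reduced, between 200 and 500 RPKM 28 of 625 (4.48%), and between 100 and 200 RPKM 51 of 1053 (4.84%). The first 10 genes of the wild type by level included 4 partly reduced genes and the first 100 included 24. These shares are descriptions and were not tested. In msm, none of the 107 stood among the first 10 genes and 9 stood among the first 100. The rule asks for a lower level in msm, so this fall in rank follows the choice of genes. The size of the reduction followed the wild-type level only weakly within the 107 genes (Pearson's r = -0.10 and Spearman's rho = -0.15 of log2 level with log2 ratio, across genes that share the same libraries, with the level also in the ratio). The bounds on the ratio narrow its range, which can by itself weaken such a correlation.

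The 4 genes of highest level in wild type show how much RNA the reduction concerns. Bra028691 (coding length 450 bases) had 838, 789.5 and 809 RPKM in msm, against 3666, 3634 and 3714 RPKM in wild type. It was the third gene of the wild type by level, and its level of 812 ± 24.6 RPKM in msm (SD, n = 3) was 4.52-fold lower than its 3671 ± 40.5 RPKM in wild type (SD, n = 3). The libraries within each group lay far closer than the groups.

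Bra009254 (915 bases) was the most strongly reduced of these 4 genes. It had 516, 472 and 516 RPKM in msm, against 2993, 3101 and 3341 RPKM in wild type, and was 6.28-fold lower. Bra040627 (288 bases) was the least reduced of them, at 2.52-fold. It had 1151, 1157 and 1261 RPKM in msm, against 2950.2, 2992.5 and 3047 RPKM in wild type, and with a mean of 1190.0 RPKM it had the highest msm level of the 107 genes. In Bra021109 (2469 bases) 1012, 930.1 and 965 RPKM were found in msm, against 2480.1, 2726 and 2841 RPKM in wild type, a difference of 2.77-fold. No msm library of any of these 4 genes came within a factor of 2 of the lowest wild-type library. The other 11 genes of at least 1000 RPKM were lower by 2.05-fold to 6.80-fold.

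The genes on either side of each bound were close in the value that the bound uses, while their other values could differ. Bra031316 (765 bases), the gene just inside 1/8, had 17.8, 12.1 and 14.9 RPKM in msm, against 109.6, 121.1 and 121.3 RPKM in wild type, at a ratio of 0.127. Bra021114, just outside, had 13.5, 11.2 and 12.2 RPKM in msm, against 93.6, 100.3 and 106 RPKM in wild type, at a ratio of 0.123. Both genes had all msm libraries far below all wild-type libraries, and the ratios differ by less than the spread of the libraries. At the upper bound, Bra018311 (1518 bases) stood just inside at 0.491, with 59.4, 62.45 and 58.1 RPKM in msm, against 128, 116 and 122 RPKM in wild type. Next to it inside was Bra014209 (1077 bases) at 0.490, with 53.1, 50.5 and 53.7 RPKM in msm, against 109.6, 103 and 109 RPKM in wild type. Bra008175 stood just outside at 0.504, with 206, 221 and 202 RPKM in msm, against 385, 426 and 437 RPKM in wild type. The wild-type minimum parted Bra034160 (2187 bases), with a mean of 101 RPKM in wild type, from Bra035001, with a mean of 97.8 RPKM. In msm, Bra034160 had 15.6, 18.8 and 18.2 RPKM, at a ratio of 0.174. Bra035001 had 40.6, 34.9 and 40.4 RPKM in msm, at a ratio of 0.395.

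Membership rested on a single library for few genes. Without each library in turn, 99 of the 107 genes met the rule every time. Of the 8 that did not, 2 left at the lower bound and 6 at the upper bound. The gene with the largest relative spread in msm, Bra016431 (333 bases), is one of the 8. It had 20.0, 9.52 and 12.0 RPKM in msm, from 169, 83 and 100 reads, against 107, 102 and 115 RPKM in wild type. Its coefficient of variation was 39.4% in msm, where msm library 1 stood apart, and its ratio of 0.128 became 0.0998 without that library and 0.1248 without wild-type library 2, both below the bound of 0.125. Bra031316 moved likewise to 0.115 without msm library 1 and to 0.123 without wild-type library 1, again below the bound. Bra018311 moved to 0.504 without wild-type library 1. Other genes entered the set when a library was left out. Without msm library 2, Bra021114 and Bra008175 met the rule, at ratios of 0.128 and 0.490. In 83 of the 107 genes the ratio of every msm library to every wild-type library lay inside both bounds.

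Because these genes are abundant, their reduction was visible in the makeup of the whole library. The 107 genes took 1.81%, 1.77% and 1.81% of the uniquely assigned reads in msm, against 5.35%, 5.58% and 5.71% in wild type. The means were 1.80% ± 0.0234 in msm and 5.55% ± 0.182 in wild type (SD, n = 3 each), a difference of 3.75 percentage points, and the groups did not overlap. The choice of genes sets the mean share lower in msm and makes the lack of overlap likely, so only the size is described. The 195 genes with a ratio of at most 1/8 took 0.150% ± 0.00205 in msm and 7.79% ± 0.0138 in wild type (SD, n = 3 each). In genes chosen without 1 library of each group, the share was 1.69% to 1.82% in the left-out msm library and 5.27% to 5.70% in the left-out wild-type library. A few genes carried much of this. The 10 partly reduced genes with the most reads in wild type took 47.9% ± 0.597 of the reads of all 107 in msm and 45.8% ± 0.627 in wild type (SD, n = 3 each). Bra021109 alone had 63523, 60125 and 59573 reads in msm, against 155549, 168770 and 175312 reads in wild type, and without it the means were 1.56% in msm and 4.89% in wild type.

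**Figure D3:**
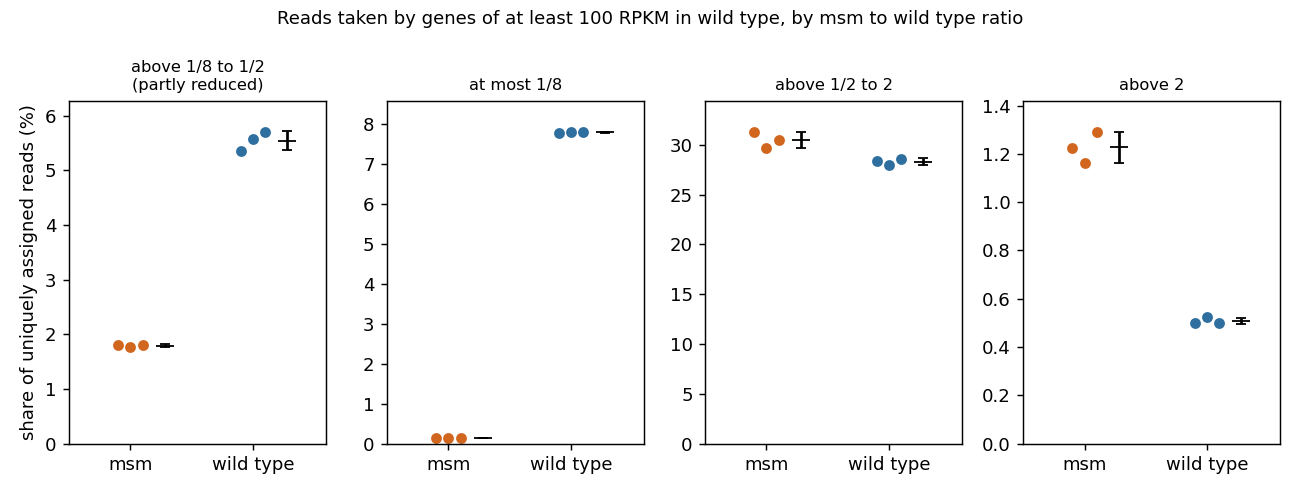
Share of uniquely assigned reads in percent (vertical axes, each from 0) in the msm (orange) and wild-type (blue) libraries for 4 classes of genes of at least 100 RPKM in wild type, split by the ratio of msm to wild type. Points are libraries, and the black marks are the mean with its SD (n = 3); the partly reduced genes average 1.80% in msm and 5.55% in wild type.

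The only run of 3 consecutive identifiers among the partly reduced genes was Bra009254, Bra009255 and Bra009256, and reduced genes extended to the identifiers before it. Bra009254 is the second of the 4 genes described above. Bra009255 (327 bases) had 637, 560.2 and 594 RPKM in msm, against 1898, 2017 and 2122 RPKM in wild type, 3.37-fold lower. Bra009256 (528 bases) had 69.4, 74.4 and 70.2 RPKM in msm, against 239, 269 and 261 RPKM in wild type, 3.60-fold lower. The 3 genes differ by more than 10-fold in level in wild type, and all stood far lower in msm.

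The identifiers next to this run were looked at after the values were seen. Bra009253 was reduced beyond 1/8, with 38.4, 40.8 and 35.4 RPKM in msm, against 373, 392 and 393 RPKM in wild type, which is 10.1-fold lower. Bra009252, a weaker gene, had 15.6, 8.99 and 13.3 RPKM in msm, against 31.3, 40.9 and 38.1 RPKM in wild type. Bra009251, at 243 bases the shortest of the 107 genes, had 102, 75.9 and 87.9 RPKM in msm, against 260.3, 276 and 295 RPKM in wild type, 3.12-fold lower. Bra009250 went the other way, with 37.1, 28.4 and 35.6 RPKM in msm, against 15.8, 15.5 and 16.7 RPKM in wild type. From Bra009251 to Bra009256 every gene thus had all msm libraries below all wild-type libraries, and at Bra009250 the order was turned round. Over all 35421 genes, 6741 (19%) had all msm libraries below all wild-type libraries. The partly reduced genes in this stretch were chosen for being lower in msm, so nothing is read from their order. On the other side of the run, Bra009257 was hardly read, at a mean of 0.143 RPKM in msm and 0.0720 RPKM in wild type. From Bra009258 to Bra009261 no gene was reduced, at ratios of msm to wild type of 1.09 to 1.65. Of these, Bra009258 and Bra009259 were weak, with means of 1.08 and 0.433 RPKM in wild type. Positions were not analysed here, and whether these are near-identical copies that share reads is not known, so the values of single genes in this stretch are uncertain to that extent.

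**Figure D4:**
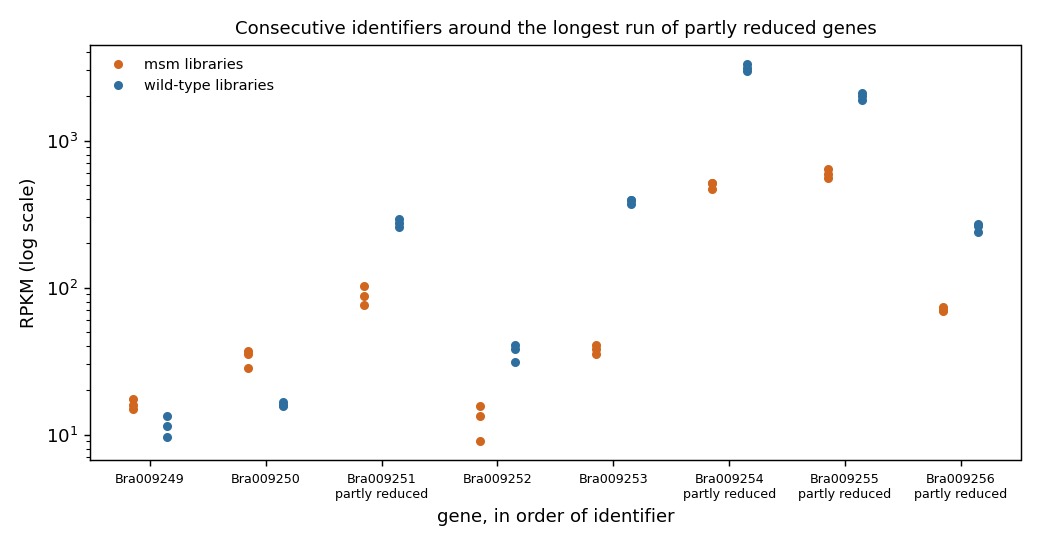
RPKM on a log scale (vertical axis) of 8 genes with consecutive identifiers (horizontal axis) in the 3 msm libraries (orange, left) and the 3 wild-type libraries (blue, right). The 6 genes from Bra009251 to Bra009256 have every msm point below every wild-type point, and Bra009249 and Bra009250 have every msm point above. The partly reduced genes among them were chosen for being lower in msm.

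A second run held 2 genes, Bra012211 and Bra012212. Bra012211 (1260 bases) had 30.7, 40.9 and 35.9 RPKM in msm, against 219, 243 and 225 RPKM in wild type. It was more strongly reduced, at 6.39-fold, than Bra012212, at 4.05-fold. Only 5 of the 107 genes stood in such runs. Of the 173 other genes whose identifier is next to that of a partly reduced gene and that had a read in wild type, 37 (21.4%) had a ratio of at most 1/2, and 3 of these were abundant genes with a ratio of at most 1/8. Over all 34374 genes with a read in wild type the share was 5294, or 15.4%. Next to the 195 abundant genes with a ratio of at most 1/8 the share was 21.6% (66 of 306), close to that of the partly reduced genes. Next to the 1508 abundant genes that lay above 1/2 and at most 2 it was 15.2% (371 of 2439). These shares were not tested.

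In length the partly reduced genes were close to the middle of all genes. Their coding length had a median of 1026 bases (quartiles 717 and 1309.5), beside 1056 bases over all genes with a read, 972 bases in the abundant genes with a ratio of at most 1/8 and 750 bases in those above 1/2 and at most 2. The longest of the 107, Bra014776 (3855 bases), had 44.0, 49.8 and 48.5 RPKM in msm, against 178, 180.6 and 181.0 RPKM in wild type, and was 3.79-fold lower. Length and size of the reduction showed little relation within the 107 genes (Pearson's r = -0.066 and Spearman's rho = -0.036 on log2 scales, across genes that share the same libraries). Here too the bounds narrow the range of the ratio, which can weaken a correlation.

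Reads lay along nearly the whole coding length of the partly reduced genes in both groups. The covered part of the length, as the authors deposited it, had a median of 99.7% in msm and 99.8% in wild type. In 106 of the 107 genes the group means differed by less than 2 percentage points. The 1508 abundant genes with a ratio above 1/2 and at most 2 had a median of 99.8% in both groups. Such cover is thus no trait of the partly reduced genes alone. In the 195 abundant genes with a ratio of at most 1/8 the median was 56.6% in msm and 99.8% in wild type, and covered length depends on the number of reads. Only 4 partly reduced genes were covered to less than 90% in msm, and 3 in wild type.

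Bra012212 (2376 bases) was the exception, and it was also the gene with the largest relative spread in wild type (coefficient of variation 13.0%). It had 156, 166 and 149 RPKM in msm, against 547, 709 and 654 RPKM in wild type. Its reads covered 66.5% ± 4.99 of its length in msm and 99.9% ± 0.0231 in wild type (SD, n = 3 each), although 9404, 10340 and 8871 reads were left in msm, against 32993, 42271 and 38827 reads in wild type. The covered part was thus smaller by 33.4 percentage points in msm on average, and the highest msm library, at 70.6%, stood below all wild-type libraries.

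Bra021109 was covered in part in both groups, to 39.3% ± 0.0611 of its length in msm and 41.2% ± 3.25 in wild type (SD, n = 3 each). The higher mean in wild type came from library 4 alone, at 44.92%, beside 39.33% and 39.25% in libraries 1 and 2. The RPKM of Bra021109 is scaled to the full length of 2469 bases and so understates the level of the part that was read. Where along these 2 genes the reads lay was not analysed here.

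**Figure D5:**
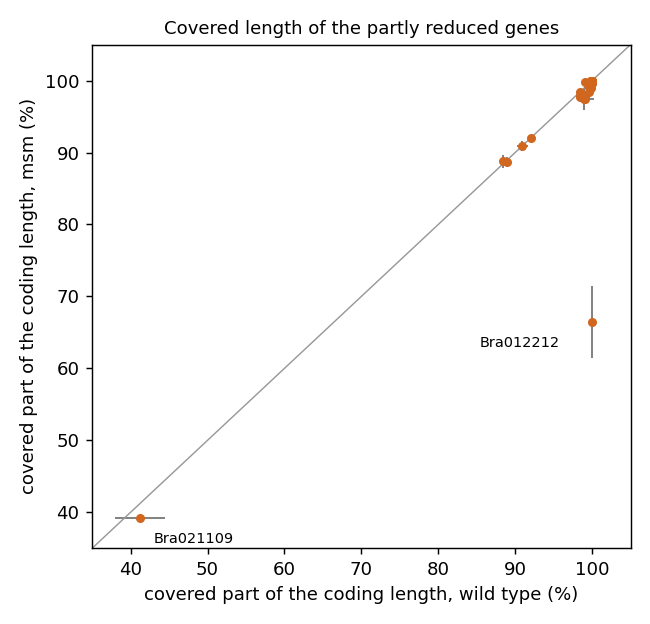
Covered part of the coding length in percent for the 107 partly reduced genes, msm (vertical axis) against wild type (horizontal axis); points are means and bars SDs (n = 3 each), and the line marks equal values. Nearly all points sit near 99% on the line, Bra021109 sits near 40% in both groups, and Bra012212 stands alone at 66.5% in msm and 99.9% in wild type.

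What these genes encode was not identified. A table of RefSeq genes of Brassica rapa named 1 of the 35421 identifiers and none of the 107, so the lists of anther, pollen, floral organ, photosynthesis, lipid transfer and ribosome genes could not be laid over them, and no sequence of theirs was printed.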

How the data were processed

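Counts of uniquely assigned reads per gene, gene length, covered length and RPKM were read from the deposited tables, 1 for each library. The counts are raw, per the file headers, and their sum equalled the header's total in all 6 libraries. The RPKM values of the authors are those counts scaled to length and total, to within a relative difference of 6.44e-15. All lengths are multiples of 3, so they are coding lengths. Covered length is a deposited percentage, and 14 values passed 100. The submitters' processing notes name DESeq with no role. For aligner, counting tool, strand use, build and annotation nothing is given in the sources used here, so reads of near-identical or overlapping genes may be misplaced. A gene missing from a library's table was set to 0 there.

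Samples were grouped by their titles. The members and lists were chosen with earlier results of these data known. Named genes follow a rule: the 4 of highest wild-type level, those next to each bound, those with the largest spread in each group or the largest loss of covered length, the longest identifier run, the shortest and the longest. Bra009249, Bra009250, Bra009252, Bra009253, Bra009257 to Bra009261 and Bra012211 were named after their values were seen. The background calls come from edgeR 4.0.16 (R 4.3.3; TMM, default filter, robust fit) over all genes, tested on simulated data. Alternatives were DESeq2 1.42.0, limma 3.58.1 on log2(RPKM + 1) or log2(RPKM + 0.5) of genes with at least 0.1 RPKM in 3 libraries, other scalings, filters and bounds, and each library left out. Gene lists were planned but could not be matched to identifiers.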

Additional observations from a re-analysis of the deposited data

How the results depend on the processing

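The number of partly reduced genes was 142 on TMM-rescaled RPKM, of which 101 were among the 107, and 197 and 56 with a wild-type minimum of 50 and 200 RPKM. It was 89 when every pair of libraries had to meet 1/2, and 106 to 109 with 1 library left out. Genes chosen on TMM-rescaled RPKM took 2.26% of the reads in msm and 6.34% in wild type, at a median ratio of 0.397; the ratio of the 107 genes after TMM rescaling was 0.305, against 0.354 as deposited. Without Bra021109, left out after the data were seen, the shares were 1.56% and 4.89%. With a library of each group left out and measured, the shares were 1.69% to 1.82% and 5.27% to 5.70%, and the median ratio 0.327 to 0.371. All 107 genes were called lower in each of the 16 alternative fits, which the choice of genes makes likely, so nothing is read from this. Over the whole table, 8764 of 29104 genes were called lower with no fold threshold and 3991 of 34050 in DESeq2. In limma it was 2493 to 2905 of 32104, and with 1 library left out 3695 to 3838 of 29468 to 29524. Scaling and thresholds act by construction. The groups share the replicate numbers 1 and 2 only, whose deviations from the group means correlated at -0.0473 and 0.0368 across genes, so the numbers were not taken as pairs; a replicate block on these 4 libraries gave 3655 lower genes over the whole table, against 3665 without it, and all 107. TMM rescaling moved 23 of 28 group means of the 14 named genes by more than 1 SD. It lowered the values of the msm libraries (factors 1.07 to 1.08) and raised those of the wild-type libraries (0.925 to 0.929). The 14 genes, which were lower in msm, therefore kept their direction. Depth limits the weakest genes most, such as Bra016431 with 83 reads in an msm library.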

Other observations

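Single libraries stood slightly high or low over many of the partly reduced genes at once, and not always in the way of the abundant genes that changed little. Of the 107 genes, 57 (53.3%) had their lowest msm level in msm library 2 and 52 (48.6%) their highest in msm library 1. Among the 1508 abundant genes with a ratio above 1/2 and at most 2, the shares were 69.3% and 69.0%. In wild type, 64 of the 107 genes (59.8%) were lowest in wild-type library 1 and 67 (62.6%) were highest in wild-type library 4, beside 39.6% and 55.9% of the 1508 genes. The shifts were small: the median deviation of a library from its group mean over the 107 genes ran from -0.039 to 0.039 in msm and from -0.036 to 0.038 in wild type on the log2 scale. The difference between the gene classes was not tested.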
